A study of Mus musculus with 19 samples.

Results

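The 10 genes described here belong to the circadian clock and its direct output, and were followed in the kidney and liver of mice without macroH2A1.1 and of wild-type mice: Arntl, Clock, Npas2, Cry1, Per2, Per3, Nr1d1, Nr1d2, Dbp and Ciart. They were taken by name as core clock and output genes, and are 10 of the 26506 genes in the deposited count table. Their levels in each library bear on when the tissues were collected, and the time of day at collection is not given in the sources used here. The 4 groups were 5 macroH2A1.1 knockout (KO) kidneys, 5 wild-type (WT) kidneys, 5 KO livers and 4 WT livers, all whole tissue of male mice, measured by sequencing of poly(A) RNA.

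H2afy encodes macroH2A1, a histone variant made as alternative splice forms, and macroH2A1.1 is the form able to bind ADP-ribose. The KO allele goes back to a floxed exon 6b, removed by soluble Cre protein given to zygotes and not by a transgene, so that the deletion is not limited to 1 cell type. Homozygous KO and WT mice came from crosses of heterozygotes, on a C57BL/6J background reached by 10 or more generations of backcrossing, and no agent is named for any group. Mice were kept in equal spans of light and dark with food always present. The housing notes name a standard and a ketogenic diet, and which mouse received which, like the ages, is not given in the sources used here. The liver of WT mouse 23 was not analysed here.

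In mammals the clock is a feedback loop. Clock or its relative Npas2 pairs with Arntl (also called Bmal1) and switches on genes that carry E-boxes, among them the Per and Cry genes, whose proteins then block the pair. The same pair drives Nr1d1 and Nr1d2, nuclear receptors that repress Arntl, Npas2 and Clock through ROR elements, and Dbp, a transcription factor that acts on D-boxes, while Ciart is a further repressor of the loop. In mouse liver and kidney the outputs Dbp and Nr1d1 are known to peak in the light phase, and Arntl and Npas2 around the change from dark to light, so the balance between them is often read as a marker of time. Below, Arntl, Clock, Npas2 and Cry1 are called the activator-phase genes, Cry1 being placed there because its RNA peaks late, and the other 6 are called the outputs.

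The promoter stretches with matches to known clock motifs are shown to describe where the members differ in these letters. RefSeq windows on GRCm38.p6, from 250 bases before to 50 bases after a transcription start, were found for 9 of the 10 members, and Per2 had none. Both strands were searched for the E-box CACGTG and for the E-prime box CACGTT, which reads AACGTG from the other strand. The D-box was searched in its forms TTATGTAA and TTACGTAA. The ROR element was taken as TAGGTCA or its variant TGGGTCA, the cAMP element as TGACGTCA, and the palindromic glucocorticoid element was searched as well. No match of one motif overlapped a match of another. Motif letters are in capitals, 5′ to 3′ on the strand of the gene, and positions count the start as 1 and the base before it as -1.
Ciart, chr3:95882252-95882359, minus strand: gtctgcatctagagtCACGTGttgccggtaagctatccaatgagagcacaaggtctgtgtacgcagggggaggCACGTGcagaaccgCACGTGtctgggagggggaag
Per3, chr4:151044801-151044885, minus strand: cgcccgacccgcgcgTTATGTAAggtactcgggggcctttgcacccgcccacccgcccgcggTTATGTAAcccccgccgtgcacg
Cry1, chr10:85185094-85185148, minus strand: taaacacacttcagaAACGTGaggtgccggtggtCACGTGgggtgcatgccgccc
Nr1d1, chr11:98775385-98775420, minus strand: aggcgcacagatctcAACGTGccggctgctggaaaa
Arntl, chr7:113207530-113207558, plus strand: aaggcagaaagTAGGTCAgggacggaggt

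Ciart held 3 E-boxes, at -116, -58 and -44. Per3 was the member with D-boxes, and held 2 of them, at -205 and -158. Cry1 had an E-prime box at -79 and an E-box at -60, Nr1d1 an E-prime box at -28, and Arntl a ROR element at 31 from the second of its 2 starts. Clock, Npas2, Dbp and Nr1d2 had no match in their windows, and the cAMP and glucocorticoid elements were found in no member. Over all 27025 genes with a window, 8.09% held an E-box, 5.44% an E-prime box, 1.23% a D-box, 7.35% a ROR element, 2.03% a cAMP element and 0.537% a glucocorticoid element. A match describes letters and is not evidence of binding, and a clock site outside the window is not seen.

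Some libraries stood apart before any clock gene was considered. H2afy, the targeted gene, was counted over all isoforms, so its count does not measure the deleted exon alone. It was at 36.0 to 44.3 CPM (counts scaled per library size, after TMM over all libraries together) in KO kidneys and at 61.6 to 67.0 CPM in 4 WT kidneys, and the library labelled WT 24 had 48.8 CPM. In liver it was at 59.5 to 72.7 CPM in KO and at 103 to 121 CPM in 3 WT livers, and the library labelled WT 24 again was near the KO range, at 73.8 CPM. In kidney the log2 fold change of H2afy (KO over WT) was -0.58 (adjusted p = 0.136 by edgeR and 9.14e-05 by DESeq2). In liver it was -0.61 (adjusted p = 0.384 by edgeR and 0.0212 by DESeq2). Without that mouse number it passed in edgeR too, with an adjusted p of 0.00679 for kidney (-0.65) and 0.0469 for liver (-0.74). Number 24 was singled out by its low H2afy, so leaving it out enlarges this change by construction. These p-values are therefore no independent check. The KO kidney of mouse 16 held RNA of the adrenal cortex: Star, the cholesterol carrier of steroid-making cells, was at 64.9 CPM there and at 3.09 to 4.94 CPM in the other 9 kidneys, and Cyp11b1, the last step to corticosterone, was at 19.9 CPM there and at 0 to 0.0526 CPM elsewhere in kidney. The summed 3 adrenal markers reached 87.6 CPM in that library, with Cyp11b2 at 2.76 CPM. They were at 2.55 to 4.49 CPM in KO livers and 2.83 to 3.68 CPM in WT livers, where Cyp11b1 was at 0. Hepatocyte markers summed to at least 106880 CPM in liver and tubule markers to at least 7072 CPM in kidney, so each tissue carried the markers of its label. H2afy of number 24 thus lay nearer the KO libraries than the other WT ones in both tissues, though above every KO library. The WT label of number 24 is in doubt, and so is every KO against WT direction that this library sets. Skeletal muscle markers (4 of 4 detected in each group) summed to 0.313 to 14.3 CPM in KO livers and 0.418 to 2.19 CPM in WT livers, and their part in the liver values was not tested. Where leaving out mouse 16 or the libraries labelled WT 24 moved a member's KO estimate by a large part, the value without them is printed beside it.

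All 10 members passed the filter on low counts in every comparison. Depth was 26084473 to 34806035 counts in liver libraries and 25919138 to 35131720 counts in kidney libraries. At this depth the lowest member count was 5 reads, for Ciart in a KO liver, and Dbp and Npas2 went down to 18 reads in their lowest livers, whereas the lowest Nr1d1 count was 448. In whole tissue, fewer cells that express a gene and less of its RNA per cell cannot be told apart. Levels are compared between genes only as RPKM, which divides CPM by the length of the exons in kilobases. In kidney the order of mean levels was Nr1d1 at 22.1 ± 6.51 RPKM (SD, n = 10), Nr1d2 at 14.5 ± 3.10 RPKM, Dbp at 9.82 ± 5.93 RPKM, then Per2 at 2.85, Clock at 2.71, Per3 at 2.28, Npas2 at 1.48, Arntl at 1.26, Ciart at 1.23 and Cry1 at 0.815 RPKM. Neighbours in this order differed by less than the larger of their SDs, except Nr1d1 and Nr1d2, Dbp and Per2, and Per3 and Npas2. In liver Nr1d1 again had the top mean, at 35.1 ± 17.7 RPKM (SD, n = 9), with Nr1d2 at 13.5 ± 4.77 RPKM and Dbp at 6.18 ± 6.91 RPKM, and Cry1 came next at 4.36 ± 2.14 RPKM. Below it were Clock at 3.47, Arntl at 2.46, Per2 at 1.70, Npas2 at 1.14, Ciart at 1.07 and Per3 at 0.544 RPKM. Only Nr1d1 and Nr1d2, and Nr1d2 and Dbp, were farther apart than the larger SD of the pair in liver.

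**Figure D1:**
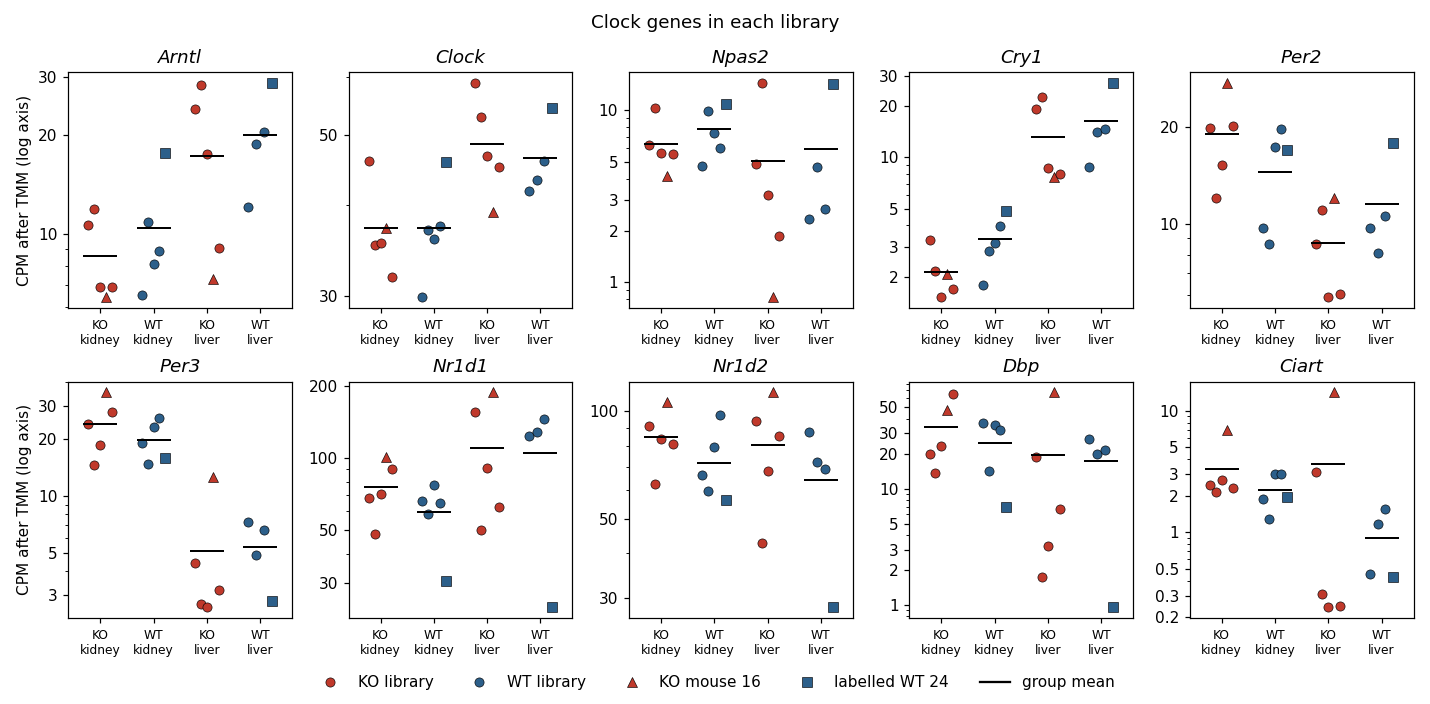
Level of each clock gene in each library, as CPM after TMM on a log axis, for KO and WT kidney and KO and WT liver; bars are group means, triangles KO mouse 16 and squares the libraries labelled WT 24. KO and WT points overlap for all 10 genes in both tissues, and the liver points of Dbp run from 0.960 to 67.3 CPM.

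Arntl (ENSMUSG00000055116, GRCm38 chromosome 7, 113207465 to 113314126, plus strand) encodes the partner shared by Clock and Npas2. In kidney it had 10.7, 11.9, 6.91, 6.43 and 6.90 CPM in KO mice 13, 14, 15, 16 and 18, against 6.52, 10.9, 8.11, 8.88 and 17.7 CPM in the libraries labelled WT 19, 20, 22, 23 and 24. In liver it had 24.1, 28.4, 17.5, 7.30 and 9.10 CPM in the KO mice, against 12.1, 18.8, 20.4 and 28.9 CPM in the libraries labelled WT 19, 20, 22 and 24. The groups overlapped in both tissues, mouse 16 had the lowest Arntl of each tissue, and the library labelled WT 24 had the highest. In kidney the log2 fold change (KO over WT) was -0.27 (SE 0.26, edgeR quasi-likelihood test, adjusted p = 0.9995). It was -0.19 without mouse 16 and 0.00 without the library labelled WT 24. The same estimate in liver was -0.21 (SE 0.42, adjusted p = 0.9998), which became -0.01 without mouse 16 and 0.02 without the library labelled WT 24.

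Npas2 (ENSMUSG00000026077, chromosome 1, 39193731 to 39363236, plus strand) can stand in for Clock. Its kidney values were 6.31, 10.3, 5.67, 4.16 and 5.59 CPM in KO mice and 4.74, 9.96, 7.34, 6.00 and 10.9 CPM in the libraries labelled WT. The livers spread much more, with 4.87, 14.5, 3.23, 0.816 and 1.86 CPM in KO and 2.32, 4.69, 2.68 and 14.2 CPM in WT. KO mouse 14 and the library labelled WT 24 were the high libraries of both tissues, and KO mouse 16 was the low one in both. In kidney its log2 fold change was -0.27 (SE 0.25), which became -0.16 without mouse 16 and -0.12 without the library labelled WT 24. In liver its log2 fold change was -0.23 (SE 0.84, adjusted p = 0.9998), which became 0.06 without mouse 16 and 0.66 without the library labelled WT 24. Clock itself (ENSMUSG00000029238, chromosome 5, 76209868 to 76304792, minus strand), the usual partner of Arntl, was the steadiest member. It lay between 31.9 and 46.0 CPM in KO kidneys and 29.9 and 45.9 CPM in WT kidneys, and between 39.2 and 59.0 CPM in KO livers and 41.9 and 54.5 CPM in WT livers. Its log2 fold change was 0.00 (SE 0.12) in kidney, and 0.09 without the library labelled WT 24. In liver it was 0.07 (SE 0.13), which became 0.14 without mouse 16 and 0.16 without the library labelled WT 24.

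Cry1 (ENSMUSG00000020038, chromosome 10, 85131700 to 85185064, minus strand), the repressor that binds the Clock and Arntl pair, was the one member with an unadjusted p under 0.05 for the KO effect. In kidney it had 3.26, 2.16, 1.51, 2.07 and 1.69 CPM in KO mice and 1.78, 2.83, 3.13, 3.94 and 4.86 CPM in the libraries labelled WT. Of the kidneys labelled WT, 4 of 5 were above those of 4 of 5 KO mice, but KO mouse 13 and WT mouse 19 crossed over. The log2 fold change was -0.61 (SE 0.26, unadjusted p = 0.0298), which did not pass after adjustment over all genes (edgeR adjusted p = 0.9995). Without the library labelled WT 24 it was -0.44 and the unadjusted p was 0.104. Cry1 livers held 19.2, 22.5, 8.68, 7.66 and 8.03 CPM in KO and 8.82, 14.1, 14.6 and 27.4 CPM in WT, with a log2 fold change of -0.29 (SE 0.43) that changed sign to 0.09 without the library labelled WT 24 and was -0.14 without mouse 16. Its paralog Cry2, named beside the members, ranged over 11.2 to 19.6 CPM in KO kidneys and 12.0 to 24 CPM in WT kidneys, with a log2 fold change of -0.17 (SE 0.19) that became -0.30 without mouse 16 and -0.26 without the library labelled WT 24.

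The Period genes encode the partners of the Cry proteins in repression. Per2 (ENSMUSG00000055866, chromosome 1, 91415982 to 91459324, minus strand) was at 12.0 to 27.5 CPM in KO kidneys and 8.67 to 19.7 CPM in WT kidneys, and at 5.89 to 12.0 CPM in KO livers and 8.12 to 17.8 CPM in WT livers. Its estimates lay on opposite sides of 0, with a log2 fold change of 0.40 (SE 0.27) in kidney and -0.40 (SE 0.27) in liver, and the tested difference between the tissues, -0.80 (SE 0.41), did not pass (edgeR adjusted p = 0.9999). These estimates leaned on single libraries. The kidney value was 0.23 without mouse 16 and 0.47 without the library labelled WT 24. The liver value was -0.55 without mouse 16 and -0.12 without the library labelled WT 24. Per3 (ENSMUSG00000028957, chromosome 4, 151003652 to 151044665, minus strand) had 24.1, 14.5, 18.5, 35.4 and 27.7 CPM in KO kidneys and 19, 14.8, 23.1, 26 and 15.9 CPM in WT kidneys. Per3 in liver was low apart from 1 library, at 4.42, 2.69, 2.58, 12.6 and 3.18 CPM in KO and 7.28, 4.88, 6.57 and 2.77 CPM in WT. The high value belonged to KO mouse 16, whose kidney was also the highest of its tissue. Leaving that mouse out moved the liver log2 fold change of Per3 to -0.74 (SE 0.30, adjusted p = 0.9995), against -0.07 (SE 0.50) with it, and it was -0.29 without the library labelled WT 24. The kidney log2 fold change of Per3 was 0.29 (SE 0.23), which became 0.11 without mouse 16 and 0.23 without the library labelled WT 24.

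Nr1d1 (ENSMUSG00000020889, chromosome 11, 98767932 to 98775333, minus strand), the heme-binding repressor REV-ERB alpha, had 68.5, 48.2, 71.3, 101 and 90.6 CPM in KO kidneys and 66.2, 58.4, 77.7, 65.4 and 30.8 CPM in WT kidneys. In liver the KO mice had 157, 50.2, 91.3, 189 and 62.7 CPM and the libraries labelled WT 124, 129, 146 and 23.9 CPM. The lowest library of each tissue was the one labelled WT 24 and the highest was mouse 16. Its log2 fold change was 0.36 (SE 0.25) in kidney, where it became 0.23 without mouse 16 and 0.19 without the library labelled WT 24, and in liver 0.07 (SE 0.57), which became -0.26 without the library labelled WT 24 and -0.22 without mouse 16. Its paralog Nr1d2 (ENSMUSG00000021775, chromosome 14, 18204054 to 18239127, minus strand) moved less between libraries, with 62.7 to 106 CPM in KO kidneys and 56.4 to 97.4 CPM in WT kidneys, and 42.8 to 113 CPM in KO livers and 28.3 to 87.2 CPM in WT livers. The KO effect on Nr1d2 was 0.25 (SE 0.15) in kidney and 0.34 (SE 0.34) in liver on the log2 scale. The kidney value was 0.15 without mouse 16 and 0.17 without the library labelled WT 24. The liver value was 0.18 without mouse 16 and 0.09 without the library labelled WT 24. Whether counting used strand is unknown here (not given in the sources used here). Reads of Nr1d1 therefore cannot be separated from those of Thra, the thyroid hormone receptor gene that overlaps its end on the other strand. The same holds for Dbp with Sphk2, Ciart with C920021L13Rik and Arntl with Gm45355. Other members overlap genes on their own strand, where strand could not separate reads. These are Per3 with Camta1, Npas2 with Gm3617, and Clock with Ube2n-ps1 and Gm43658.

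Dbp (ENSMUSG00000059824, chromosome 7, 45705088 to 45710203, plus strand), the D-box activator, was the member with the widest range. Its kidney values were 19.8, 13.6, 23.2, 47.2 and 65.5 CPM in KO mice and 36.9, 14.1, 35, 31.6 and 6.91 CPM in the libraries labelled WT. In liver they were 18.6, 1.75, 3.23, 67.3 and 6.66 CPM in KO and 26.5, 19.9, 21.4 and 0.960 CPM in WT. The livers thus spanned 70.1-fold, and the highest and lowest KO livers (mice 16 and 14) and the lowest WT liver (labelled 24) held the same places for Nr1d1. Its KO effect could not be pinned down at this spread: the log2 fold change was 0.46 (SE 0.58) in kidney and 0.19 (SE 1.17) in liver. The kidney estimate became 0.31 without mouse 16 and 0.22 without the library labelled WT 24. The liver estimate became -1.18 without mouse 16 and -0.20 without the library labelled WT 24, none of them passing (adjusted p of 0.9995 or more). Ciart (ENSMUSG00000038550, chromosome 3, 95878503 to 95882251, minus strand), the repressor with 3 E-boxes, had 2.44, 2.16, 2.71, 6.98 and 2.32 CPM in KO kidneys and 1.87, 1.29, 3.03, 2.99 and 1.94 CPM in WT kidneys. Its livers held 3.14, 0.313, 0.242, 14.2 and 0.245 CPM in KO and 0.455, 1.17, 1.55 and 0.427 CPM in WT. Mouse 16 was again the high library in both tissues, and 3 of 5 KO livers were below every WT liver. The liver log2 fold change of Ciart, 2.01 (SE 1.31, adjusted p = 0.9998), was 0.15 without mouse 16. In kidney the log2 fold change of Ciart was 0.58 (SE 0.34), which became 0.12 without mouse 16 and 0.54 without the library labelled WT 24.

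Taking all members together, no KO effect was called. By the edgeR quasi-likelihood test 0 of 10 members passed an adjusted p of 0.05 in kidney, where 0.00579% of 17269 genes did, and 0 of 10 passed in liver, where the share was 0% of 14591 genes. At an unadjusted p under 0.05 there was 1 member in kidney, Cry1, where 2.95% of all genes lay, or 0 without the library labelled WT 24, and 0 members in liver, where 4.17% of all genes lay, or 1 (Per3) without mouse 16. DESeq2 and limma voom also called 0 of 10 members in each tissue. No difference in the KO effect between liver and kidney was called for a member either, with 0 of 10 called and 0 at an unadjusted p under 0.05, against 0% and 4.12% of 18549 genes. KO and WT ranges overlapped for 10 of 10 members in both tissues, while they were apart for 0.544% of genes in kidney and 1.62% in liver. Without both mouse 16 and the libraries labelled WT 24, 10 of 10 still overlapped in kidney and 8 of 10 in liver. In liver KO then lay below WT for Per3 and Dbp, and 6% of genes were apart. For both genes mouse 16 was the highest KO liver and number 24 the lowest liver labelled WT. Leaving them out moves both genes that way by construction, so the 6% is not a like comparison. The median log2 fold change of the members was 0.27 in kidney, with 7 above and 3 below 0, and -0.00 in liver, with 5 above and 5 below, and the medians of all genes tested were 0.01 in kidney and 0.00 in liver. The kidney median of the members was 0.12 without mouse 16 and 0.18 without the library labelled WT 24. These tests do not show equal levels, since the SE of a member's estimate had a median of 0.25 in kidney and 0.47 in liver, against 0.13 and 0.17 over all genes.

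**Figure D2:**
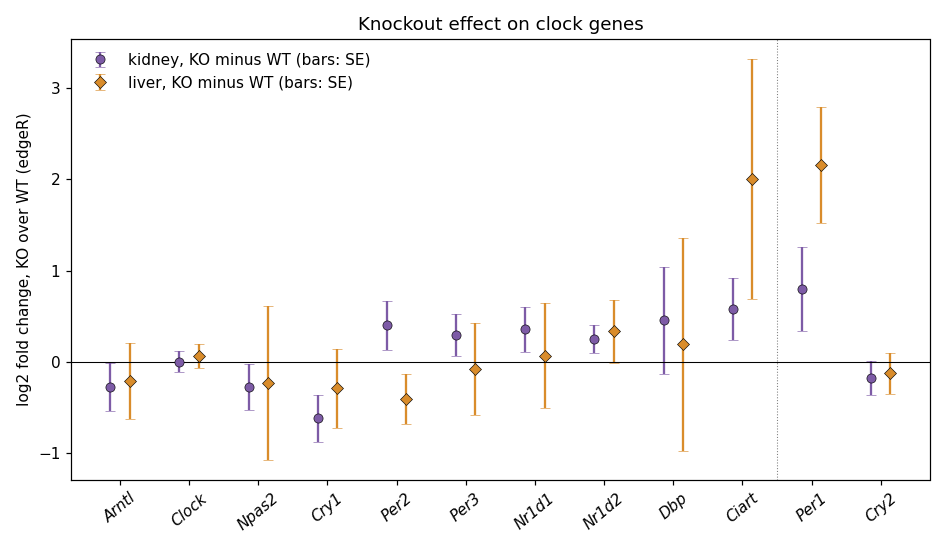
Log2 fold change, KO over WT, of the 10 clock genes and of Per1 and Cry2 (right of the dotted line), in kidney (circles) and liver (diamonds); bars are standard errors from edgeR. No point passed the adjusted threshold, and the bars of Dbp and Ciart in liver are the longest, with SE 1.17 and 1.31.

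Libraries of the same group differed far more for these genes than for most. The SD of log2 CPM around the group mean was above the median of all genes for 9 of 10 members in each tissue, Clock being the exception in both. In liver the SD was 2.14 for Dbp, which ranked 6 of 14591 genes, 1.98 for Ciart, which ranked 13, and 1.38 for Npas2, which ranked 60. In kidney Dbp was again the most variable member, with an SD of 0.99 and rank 104 of 17269. The median SD over members was 0.48 in kidney and 0.77 in liver, and that over all genes was 0.22 and 0.26. Leaving out both mouse 16 and the library labelled WT 24, a choice made after the data had been seen, reduced the liver SD of Dbp to 1.13, that of Ciart to 1.39 and that of Npas2 to 1.01. They stayed above the median over all genes, which was taken with all libraries and not recomputed without these. Adrenal markers were high in the kidney of mouse 16, and their part in its clock gene values was not tested. In its liver, where Dbp was at 67.3 CPM and Ciart at 14.2 CPM, the highest of that tissue, Cyp11b1 and Cyp11b2 were at 0 and Star was at 4.49 CPM, the top of the livers' range.

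**Figure D3:**
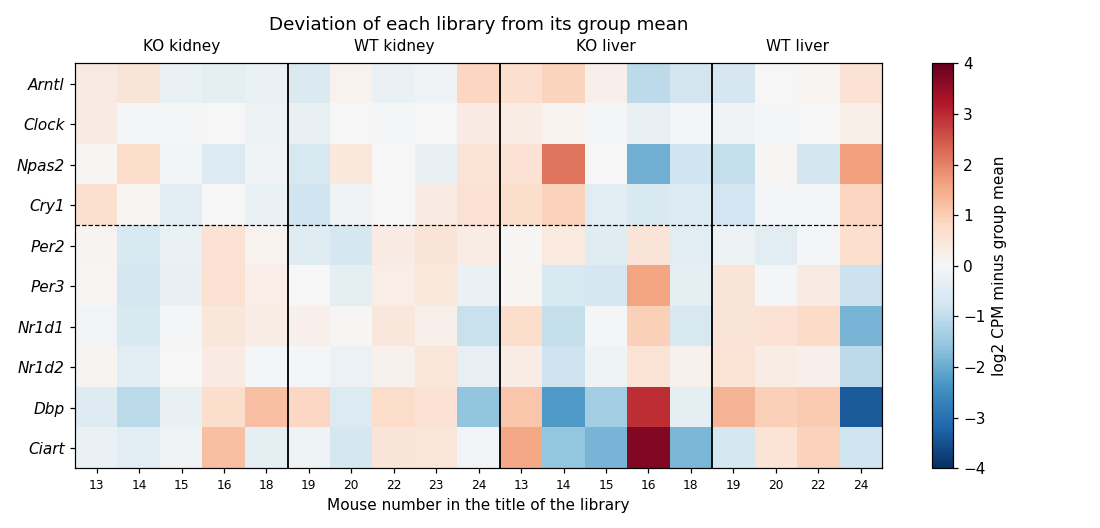
Deviation of each library from the mean of its group, as log2 CPM, for activator-phase genes (above the dashed line) and outputs (below it), with libraries in columns by group and mouse number. KO mouse 16 and the libraries labelled WT 24 show opposite colours above and below the line in liver, apart from Per2 in the WT 24 liver.

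The members fell into 2 blocks, apart from Per2 in liver. In liver the opposition between them was not seen once the 2 mice at its extremes were left out together. Across libraries within a tissue, centred on the group means, all 6 pairs of activator-phase genes correlated positively in kidney and in liver, with median Pearson r of 0.75 over 10 kidneys and 0.89 over 9 livers. Pairs of outputs were positive in 15 of 15 cases in kidney and 12 of 15 in liver. Pairs of an output with an activator-phase gene were negative in 17 of 24 cases in kidney and 20 of 24 in liver. The strongest opposition in kidney was Arntl with Dbp, r = -0.90, and in liver Npas2 with Nr1d2, r = -0.87. Nr1d1 and Dbp went together, with r = 0.92 in kidney and 0.94 in liver. Per2 went with all 5 other outputs in kidney, from r = 0.28 with Nr1d1 to 0.81 with Per3. In liver its r was -0.47 with Nr1d2, -0.34 with Nr1d1 and -0.20 with Dbp. These became -0.01, 0.33 and 0.39 without the library labelled WT 24, but -0.78, -0.64 and -0.65 without mouse 16. Without both they were -0.51, -0.09 and -0.15. The 4 positive pairs across the blocks in liver were all of Per2, from r = 0.26 with Arntl to 0.56 with Cry1. Without both mouse 16 and the libraries labelled WT 24, pairs of activator-phase genes stayed positive in 6 of 6 cases in each tissue, and pairs of outputs in 15 of 15 in kidney and 12 of 15 in liver. Pairs across the blocks were then negative in 16 of 24 cases in kidney, with a median r of -0.29 against -0.49 with all libraries, and in 10 of 24 in liver, with a median r of 0.15 against -0.56. With only mouse 16 or only number 24 left out, the liver median was -0.39 in both cases. Numbers 16 and 24 are the extremes of the difference between the blocks, given below. Leaving both out therefore narrows the range in which an opposition can show. Without both, Arntl with Dbp in kidney was at -0.80 and Npas2 with Nr1d2 in liver at -0.76. All these values describe genes that share libraries and depth, and have no p.

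The balance of the 2 blocks gave each library 1 number, the mean of the outputs minus the mean of the activator-phase genes in log2 CPM centred within the tissue. In kidney it was -0.12, -0.63, 0.36, 1.2 and 0.80 in KO mice 13, 14, 15, 16 and 18, and 0.30, -0.85, 0.17, 0.15 and -1.39 in the libraries labelled WT 19, 20, 22, 23 and 24. In liver it was 0.19, -1.88, -0.59, 2.80 and 0.07 in the KO mice and 0.82, 0.20, 0.57 and -2.18 in the libraries labelled WT 19, 20, 22 and 24. Both genotypes had libraries above and below 0, although the highest WT kidney was at 0.30 and the only liver labelled WT below 0 was 24. The extremes were mouse 16 at the output end and the library labelled WT 24 at the activator end in both tissues. The kidneys spanned 2.59 and the livers 4.99 log2 units. Group means were 0.32 ± 0.72 in KO kidneys and -0.32 ± 0.75 in WT kidneys (SD, n = 5 each), and 0.12 ± 1.71 in KO livers (SD, n = 5) and -0.15 ± 1.38 in WT livers (SD, n = 4). With all libraries the gap between the genotypes was smaller than the SD within them in both tissues. Without the library labelled WT 24 the WT means became -0.06 in kidney and 0.53 in liver. Without mouse 16 the KO means became 0.10 in kidney and -0.55 in liver. In liver the KO mean then lay below the WT mean under either choice. Without both, the liver means were -0.55 ± 0.95 in KO (SD, n = 4) and 0.53 ± 0.31 in WT (SD, n = 3). That gap was larger than either SD. The kidney means were then 0.10 ± 0.61 in KO and -0.06 ± 0.53 in WT (SD, n = 4 each), closer than either SD. In both tissues mouse 16 had the highest balance in KO and number 24 the lowest in WT. Leaving them out lowers the KO mean and raises the WT mean by construction, so these gaps are not read as a KO effect. The hour of collection, feeding and diet are not given per mouse in the sources used here, and cannot be told apart.

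**Figure D4:**
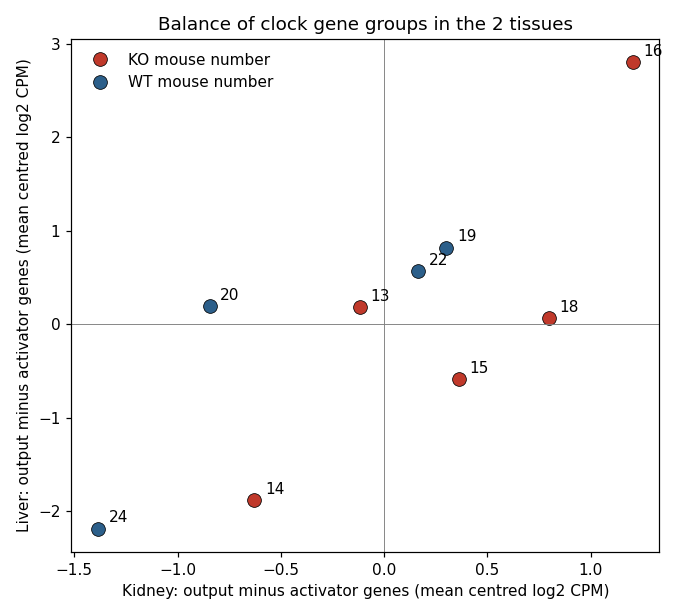
Mean of outputs minus mean of activator-phase genes, in centred log2 CPM, in kidney (horizontal) and liver (vertical) for the 9 mouse numbers with both tissues; red is KO and blue is WT. Number 16 lies at the upper right (1.2 in kidney, 2.80 in liver) and number 24 at the lower left (-1.39 and -2.18).

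Kidney and liver with the same mouse number deviated together for most members. The titles give the number, and it is taken here as 1 animal, which the labels do not say in words. Over 9 numbers, deviations from the genotype mean in kidney and liver had r above 0.5 for 9 of 10 members, against 28.2% of the 13847 genes tested in both tissues, and the median r was 0.76 for members and 0.26 for all genes. Npas2 had the highest value, Pearson r = 0.89 (exact two-sided permutation within genotype, p = 0.00451, adjusted p = 0.368 over all genes) and Spearman rho = 0.95 (exact permutation p = 0.00069, adjusted p = 0.385), and r stayed at 0.89 without the 2 mice farthest from the kidney median. Cry1 (r = 0.82, rho = 0.78), Arntl (0.80 and 0.80), Per3 (0.77 and 0.73) and Nr1d2 (0.75 and 0.72) followed, with r of 0.56 to 0.71 without the 2 farthest mice. Exact permutation p for these 4 genes lay between 0.0129 and 0.0313 for r and between 0.00382 and 0.0497 for rho, with adjusted p from 0.382 to 0.425 and from 0.439 to 0.553. For Nr1d1 (r = 0.81, exact permutation p = 0.0358, adjusted p = 0.435, rho = 0.70, exact permutation p = 0.0587, adjusted p = 0.591) the relation rested on 2 mice, since r was 0.21 without mice 14 and 24. Ciart (r = 0.70, rho = 0.42) and Clock (r = 0.70, rho = 0.48) likewise went to -0.20 without mice 16 and 22 and to 0.02 without mice 13 and 24. Their exact permutation p was 0.0799 and 0.0455 for r and 0.285 and 0.224 for rho, with adjusted p of 0.510 and 0.456 for r and 0.771 and 0.731 for rho. Dbp had r = 0.69 and rho = 0.53 (exact permutation p = 0.0566 and 0.183, adjusted p = 0.473 and 0.704), with r = 0.82 without mice 18 and 19. Per2 was lowest, with r = 0.44 and rho = 0.35 (exact permutation p = 0.275 and 0.381, adjusted p = 0.702 and 0.825), and r = 0.71 without mice 14 and 20. The count of members with r above 0.5 was 8 of 10 without mouse 16 and 8 of 10 without number 24. After adjustment 0 of 13847 genes passed, and the smallest p the 2880 permutations allow is 0.00035, so no single member is called.

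Liver and kidney set the members at different levels. In 1 fit of all libraries 5 of 10 members passed (edgeR, adjusted p under 0.05), a smaller share than the 81.1% of 18549 genes that did. Cry1 was higher in liver by 2.46 log2 units (SE 0.27, adjusted p = 5.58e-08), Arntl by 0.98 (SE 0.26, adjusted p = 0.00215) and Clock by 0.35 (SE 0.09, adjusted p = 0.00104), where 35.5% of all genes were higher. Per3 was lower in liver with -2.05 (SE 0.29, adjusted p = 4.34e-06) and Per2 with -0.72 (SE 0.20, adjusted p = 0.00304), where 45.5% of all genes were lower. The tissues did not overlap for 2 members: Cry1 was at 7.66 to 27.4 CPM in livers and 1.51 to 4.86 CPM in kidneys, and Per3 at 2.58 to 12.6 CPM in livers and 14.5 to 35.4 CPM in kidneys. Over all genes 50.8% did not overlap. Nr1d1 (0.68, SE 0.32, adjusted p = 0.0591) passed without the library labelled WT 24, at 0.76 (SE 0.23, adjusted p = 0.00718), and Ciart (-0.58, SE 0.64, adjusted p = 0.415) passed without mouse 16, at -1.28 (SE 0.43, adjusted p = 0.0111). Npas2, Nr1d2 and Dbp did not pass (log2 fold changes -0.37, -0.12 and -0.66). This fit does not pair libraries by mouse number. With the number as a block in edgeR, Npas2 passed at -0.76 (adjusted p = 0.0216) and Nr1d1 at 0.54 (adjusted p = 0.0353).

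These tissue values depend on scaling. TMM sets the median log2 fold change of all genes at -0.17, and library totals set it at -1.07, a shift of -0.90 that turns the share of called genes higher in liver from 43.8% with TMM to 16.1%. Under library totals Clock was lower in liver, at -0.55 (adjusted p = 9.33e-06), Nr1d1 was at -0.22 (adjusted p = 0.516) and Arntl was at 0.09 (adjusted p = 0.765). Under library totals 4 members that did not pass with TMM were called lower in liver: Nr1d2 at -1.03 (adjusted p = 6.76e-05), Npas2 at -1.26 (adjusted p = 0.0161), Dbp at -1.57 (adjusted p = 0.0344) and Ciart at -1.47 (adjusted p = 0.0420). Cry1 remained higher at 1.57 (adjusted p = 1.55e-05) and Per3 and Per2 remained lower at -2.95 and -1.62. Relative to the median of all genes the scalings gave nearly the same values, 2.63 with TMM and 2.64 with library totals for Cry1, 1.15 and 1.16 for Arntl, 0.53 and 0.52 for Clock, -0.55 and -0.55 for Per2 and -1.88 and -1.88 for Per3. Cry2 went the way of Cry1 under TMM, at 1.21 (SE 0.16, adjusted p = 6.06e-07), and was at 0.31 (adjusted p = 0.0829) with library totals.

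**Figure D5:**
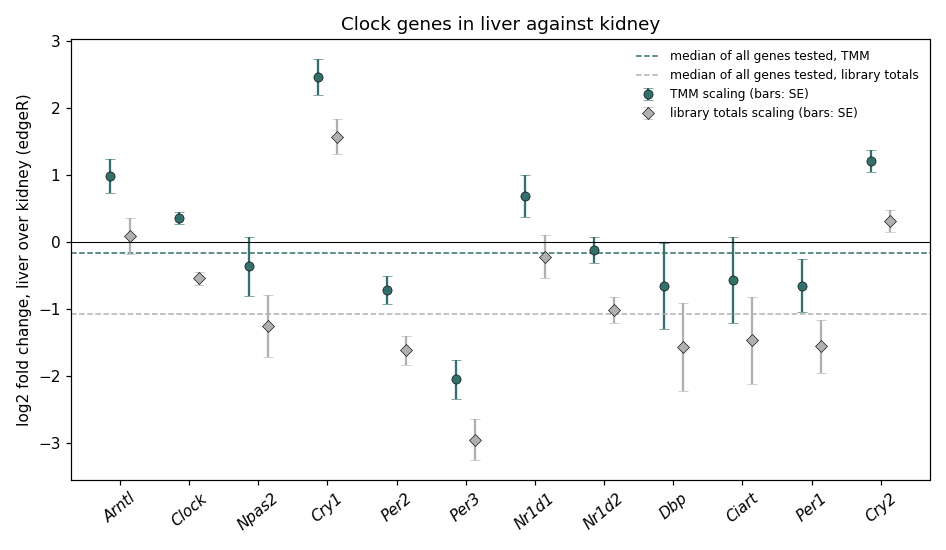
Log2 fold change, liver over kidney, of the clock genes under TMM (circles) and library totals (diamonds), with standard errors from edgeR and dashed lines at the median of all genes tested. Cry1 lies above and Per3 below both dashed lines under both scalings, at 2.46 and -2.05 under TMM.

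Genes outside the members that tracked Dbp or Arntl most closely were found by Pearson r over the 19 libraries, centred on group means, among the 13847 genes, as a description with no p. Tef, a relative of Dbp among the D-box activators, had the highest r with Dbp, 0.98. It was followed by Tbc1d10a, a Rab GTPase-activating protein (0.91), Por, the electron donor of cytochromes P450 (0.88), Tns2, a tensin (0.86), and Upp2, a uridine phosphorylase (0.86). At the other end were Jag1, a Notch ligand (-0.90), the histone demethylase gene Kdm5b (-0.87), the PI3-kinase subunit gene Pik3r3 (-0.86), Srgap3 (-0.85) and the CREB coactivator gene Crtc3 (-0.84). An r above 0.7 with Dbp was reached by 0.773% of genes, and among the members by Nr1d1 (0.93), Nr1d2 (0.89), Per3 (0.88) and Ciart (0.71). Arntl was tracked most closely by the kinase gene Dapk1 (0.88), Nav2 (0.87), the mitochondrial carrier gene Slc25a35 (0.86), the DNA methyltransferase gene Dnmt3b (0.86) and Dtx4 (0.85), and most inversely by Cdk5rap3 (-0.85), Gm49785 (-0.83), Pik3ip1 (-0.82), Tmem183a (-0.82) and Sephs2 (-0.82). Members with r above 0.7 with Arntl were Npas2 (0.87), Cry1 (0.85) and Clock (0.81), where 1.3% of genes were. Without both mouse 16 and the libraries labelled WT 24, r with Dbp was 0.97 for Tef, 0.70 to 0.79 for the other 4 genes above, and -0.86 to -0.57 for the 5 inverse ones. Among the members it was 0.81 for Nr1d1, 0.73 for Nr1d2, 0.79 for Per3 and 0.60 for Ciart. With Arntl it was then 0.72 to 0.85 for the 5 highest and -0.81 to -0.77 for the 5 lowest, and 0.83 for Npas2, 0.83 for Cry1 and 0.66 for Clock.

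The rest of the clock pathway was read from a list of 20 further genes. In kidney 13 of 20 were above 0 and 7 below, none called, and in liver 9 of 19 tested were above and 10 below, none called. The median of the list was 0.03 in kidney and -0.00 in liver, on the log2 scale. Per1, the Period gene that also answers glucocorticoids, stood out by its size: it had 37.1, 21.3, 39.96, 53.8 and 65.4 CPM in KO kidneys and 13.6, 10.8, 19.6, 47.2 and 34.7 CPM in WT kidneys. In liver it had 63.8, 8.86, 37.4, 75.9 and 35.8 CPM in KO and 7.82, 5.07, 18.4 and 8.48 CPM in WT. The livers of 4 of 5 KO mice were above every WT liver, and KO mouse 14 was within the WT range. Its log2 fold change was 2.16 in liver (SE 0.63, unadjusted p = 0.00854, edgeR adjusted p = 0.952) and 0.80 in kidney (SE 0.46, adjusted p = 0.9995), and neither passed. Without mouse 16 it was 1.87 in liver and without the library labelled WT 24 it was 2.09. Tef was at 0.26 (SE 0.15) in kidney, and Fbxl21, a ligase subunit for Cry proteins, came after Per1 in liver at -0.41 (SE 0.23), neither passing. Between the tissues 9 of the 20 were higher and 7 lower in liver, led by the receptor gene Rorb at -6.20, the D-box repressor Nfil3 at 3.05 and Fbxl21 at 1.42, with Cry2 as above, Tef at -1.11 and Fbxw11 at -1.03.

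A further 4 lists, chosen like the members with earlier results of these data known, cover what can reset or mask a peripheral clock. Of 20 clock output genes of liver and kidney, 18 were tested in each tissue, with 14 above 0 in kidney and 13 in liver and none called (median log2 fold change 0.18 and 0.34). Tsc22d3 (GILZ), a glucocorticoid target, had 137, 112, 261, 222 and 261 CPM in KO livers and 77.8, 108, 74.9 and 97.5 CPM in WT livers, with no overlap, and a KO effect of 1.15 on the log2 scale (SE 0.25, adjusted p = 0.522 by edgeR and 0.00162 by DESeq2). In kidney it was 0.53 (SE 0.17), next to Noct at 0.53 (SE 0.17), both short of the threshold. Coq10b livers, at 30.0 to 54.5 CPM in KO and 19 to 29.3 CPM in WT, did not overlap either (0.86, SE 0.21, edgeR adjusted p = 0.596, DESeq2 adjusted p = 0.0299). DESeq2 was the only 1 of 17 alternatives in liver under which Tsc22d3 or Coq10b passed. Groups did not overlap for 2 of the 18 output genes tested in liver and 0 of 18 in kidney. The share over all genes was 1.62% in liver and 0.544% in kidney. All 10 glucocorticoid responsive genes were above 0 in kidney, where 52.2% of all genes were. All 9 tested were above 0 in liver, where 51.3% of all genes were. Their median log2 fold changes were 0.34 and 0.47, and none was called by edgeR. Klf9 was among them, at 0.32 (SE 0.13) in kidney. Some were smaller than their SE, such as Mt1 at 0.04 (SE 0.27) in kidney and 0.29 (SE 0.83) in liver. Genes of this list share mice and can move together, so their signs are not independent results. Apart from Per1 in liver, their values without mouse 16 or the libraries labelled WT 24 are not given here. The part of those libraries in the common sign was not tested. Of 10 body temperature responsive genes 8 were above 0 in kidney and 6 in liver, none called (medians 0.13 and 0.20). Hspa1a in kidney was at 0.46 (SE 0.62), Hsp90aa1 in kidney at -0.18 (SE 0.16), and in liver Rbm3 was at 0.34 (SE 0.13) and Dnajb1 at 0.34 (SE 0.27).

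Genes that answer feeding and fasting were mixed in kidney, with 6 of 11 above 0, and 8 of 12 were above 0 in liver, none called (medians 0.02 and 0.52). Txnip, a thioredoxin inhibitor that follows glucose, had 431, 319, 304, 376 and 346 CPM in KO kidneys and 266, 251, 251, 242 and 274 CPM in WT kidneys. The groups did not overlap, and the log2 fold change was 0.48 (SE 0.10, edgeR adjusted p = 0.258, DESeq2 adjusted p = 0.00609). DESeq2 was the only 1 of 18 alternatives in kidney under which Txnip passed. Igfbp1, a secreted binder of insulin-like growth factors that insulin represses, had 316, 436, 292, 264 and 348 CPM in KO livers and 113, 99.3, 240 and 226 CPM in WT livers. Its groups did not overlap, and the KO effect was 0.96 on the log2 scale (SE 0.28, edgeR adjusted p = 0.915). In this list groups did not overlap for 1 of 11 genes in kidney and 1 of 12 in liver. The shares over all genes were 0.544% and 1.62%. Fasn, the fatty acid synthase, was at -0.55 (SE 0.19, adjusted p = 0.9998) in liver and 0.28 (SE 0.14, adjusted p = 0.9995) in kidney, and had the smallest p of its list for the difference between the tissues, -0.83 (SE 0.25, adjusted p = 0.840). Dbp and Tsc22d3 did not put the KO livers in the same order: KO mouse 18 had 261 CPM of Tsc22d3 and 6.66 CPM of Dbp, and KO mouse 16 had 222 and 67.3 CPM. Between the tissues, most listed genes were called: liver over kidney was at 13.6 for Elovl3, 13.3 for Cyp7a1, -12.8 for Slc9a3, 6.31 for Rgs16, -4.13 for Usp2 and 4.03 for Upp2 among the output genes.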

How the data were processed

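Raw, unscaled counts from whole-tissue poly(A) RNA sequencing were deposited by the authors for 26506 genes in 19 libraries, with row sums of 10 or more. Per the submitters' processing notes, Trim Galore, STAR, featureCounts and DESeq2 were used on build GRCm38, without versions; strand settings were not given in the sources used here. Identifiers were matched to GENCODE vM21 symbols for 26408 genes, and 98 had no match. Groups come from the titles. Nothing beyond the numbers in the titles says that libraries of a group are separate animals, and p-values reflect only how these libraries vary, which may be technical.

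Counts were tested with the robust quasi-likelihood test of edgeR 4.0.16 (R 4.3.3), TMM, filterByExpr at 10 counts and Benjamini-Hochberg adjustment over all genes tested at 0.05, two-sided, per tissue and in 1 fit of 4 groups. Alternatives used DESeq2 1.42.0 and limma 3.58.1. Log2 CPM used a prior count of 2. Fits were tested on simulated counts. The members and lists were chosen with earlier results of these data known. Named genes were all members, Per1, Cry2, H2afy, and per list up to 6 called genes of largest change or the 2 with the smallest p, of which 1 is not reported here; Tsc22d3, Coq10b, Txnip and Igfbp1 are shown per library because their groups did not overlap. The spread, balance, overlap and correlations of members without mouse 16 or the library labelled WT 24, and the balance as a covariate, were added after the data were seen.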

Additional observations from a re-analysis of the deposited data

Results flagged for a closer look

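Of 40 sets of libraries checked (10 genes in 4 groups), 4 had a library whose gap to the next one, as a share of the set's range in CPM, was above Dixon's critical value. Chance gives about 1 in 20 in independent sets of normally distributed values. These sets share mice and genes that move together, and a scale in CPM favours libraries at the high end. All 4 belonged to KO mouse 16, at the high end. Per3 in its liver was at 12.6 CPM, where the other KO livers held 2.58 to 4.42 CPM. Dbp in its liver was at 67.3 CPM, where the others held 1.75 to 18.6 CPM. Ciart was at 6.98 CPM in its kidney, where the others held 2.16 to 2.71 CPM, and at 14.2 CPM in its liver, where the others held 0.242 to 3.14 CPM. The adrenal markers of this mouse summed to 87.6 CPM in the kidney, and their part in the kidney value was not tested. In its liver they summed to 4.49 CPM, all of it Star, where the other KO livers held 2.55 to 3.80 CPM. The rule was not run on log2 CPM, where low libraries weigh more. On that scale Dbp was at 0.03 in the liver labelled WT 24, where the other WT livers held 4.32 to 4.73. Nr1d1 was at 4.58 in that liver, where the other WT livers held 6.96 to 7.19.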

How the results depend on the processing

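No member was called for the KO effect in either tissue, or for its difference between tissues, under any alternative run. KO and WT have no mouse number in common, so a block could not be fitted within a tissue. Genes called in kidney (1) were 15 with DESeq2, 3 with limma voom, 4 with no filter, 3 with 1 fit of all libraries, 2 with the balance of the members as a covariate, and 1 to 10 when each mouse was left out (10 without KO 16, 7 without WT 24). In liver (0) they were 42, 0, 3, 21 and 4 under the same alternatives and 0 to 7 with a mouse left out (7 without KO 16, 5 without WT 24). For the difference between tissues (0) they were 8 with DESeq2 and 0 to 3 with a mouse left out (3 without KO 16). Members called between liver and kidney (5) were 8 with limma voom and 8 with library totals. The cause of these changes was not tested.

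With the mouse number as a replicate block over 9 numbers, 7 members were called between liver and kidney, with Npas2 (-0.76, adjusted p = 0.0216) and Nr1d1 (0.54, adjusted p = 0.0353) added, and 0 genes for the difference in KO effect. The pairing check gave correlations of deviations from 0.08 to 0.42, over 0.1 for 7 of 9 numbers, and 4 of 9 kidneys correlated best with the liver of their own number. Under the block, log2 fold changes of the difference were -0.033 for Arntl, -0.007 for Npas2, -0.004 for Nr1d2 and -0.14 for Cry2, all uncalled and with the sign changed. Limma voom gave -0.073 for Arntl, -0.12 for Npas2 and -0.14 for Ciart there, and -0.37 for the liver KO effect of Dbp. Kidney Clock was at -0.0045 with no filter and -0.004 with 1 fit of all libraries. Library totals gave liver over kidney values of -0.55 for Clock, -0.22 for Nr1d1, -0.21 for H2afy and -0.085 for Srsf5.

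Uncalled KO estimates that changed sign with a mouse left out ranged, in kidney, from -0.42 to 0.0024 for Arntl, -0.089 to 0.091 for Clock and -0.30 to 0.0029 for Cry2. In liver they ranged from -0.47 to 0.022 for Arntl, -0.014 to 0.16 for Clock, -1.13 to 0.66 for Npas2, -0.74 to 0.10 for Per3, -0.57 to 0.091 for Cry1, -0.26 to 0.26 for Nr1d1 and -1.18 to 0.48 for Dbp. For the difference they ranged from -0.035 to 0.18 for Arntl, -0.60 to 0.79 for Npas2, -0.081 to 0.027 for H2afy, -0.13 to 0.20 for Cry2, -1.48 to 0.34 for Dbp and -0.080 to 0.29 for Nr1d2.

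Counts of 5 to 37 reads for Ciart in most livers limit its precision, and 4 or 5 libraries a group limit all comparisons. The kidney and liver correlation of Ciart was 0.12 to 0.83 with each mouse left out.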
